A study of Mus musculus with 6 samples.

Results

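The 10 genes described here had higher array signals in FOG1 ki/ki than in control megakaryocytes, and 8 of them had a mean control signal under 20: Scn10a, Lim2, Crisp3, Il10, Qprt, Car8, Syde2, Tbc1d24, Nrip3 and Gm20161. They are 10 of 11260 genes tested and 10 of 18193 genes with a probe set naming that gene alone. They were picked by name because earlier results of these same arrays had placed them among the genes highest in FOG1 ki/ki relative to control, so that difference is how they were chosen. It is given as a description, and how many of them a fit over all genes called is stated only beside the share of all genes called. Expression was measured on 6 arrays of megakaryocytes, the large marrow and fetal liver cells that shed platelets, grown from mouse fetal liver cells with thrombopoietin and purified on an albumin gradient. The control group held 2 arrays of FOG1+/- cells, replicates 1 and 2, and 1 array of FOG1+/+ cells, replicate 3. The other group held 3 arrays of cells labelled FOG1-/- ki/ki, called FOG1 ki/ki here. All mice had a mixed C57BL/6xSv129 background. The labels do not name the change carried by the knocked-in allele, the age of the embryos, or whether cultures of one number shared a litter. They call the samples biological replicates without naming separate animals, so the p-values below measure only the spread between these samples.

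FOG1, the product of Zfpm1, is a zinc finger protein that binds GATA transcription factors and helps them switch genes on or off as megakaryocytes and red cells form. Part of its repressive action runs through chromatin remodelling complexes that it recruits.  Of the 10 genes, 5 are best known from other cells: from sensory neurons (Scn10a), the lens (Lim2), exocrine glands (Crisp3), cerebellar Purkinje cells (Car8) or immune cells (Il10).

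Zfpm1 read 430, 862 and 1137 in control replicates 1, 2 and 3 and 480, 868 and 1274 in FOG1 ki/ki. These levels do not check the genotype, because the sources used here do not say which part of the gene its probe set reads or what the allele changes. Of 14 megakaryocyte markers, 12 had a probe set and passed the filter on dim signal, and their summed signal was 24040 to 31550 in controls and 21189 to 27477 in FOG1 ki/ki. The groups overlap, but the sum was lower in FOG1 ki/ki in all 3 pairs of equal number and 0 of the 12 markers had a higher mean there. Limma called 0 of the 12, with 4 at an unadjusted p under 0.05, and 1 with the replicate number as a block. Of all genes tested, 6.69% had an unadjusted p under 0.05 and 0.835% were called with the block, in either direction. The groups did not overlap for Gp6, a collagen receptor of platelets, at 702, 928 and 1500.1 in controls and 345, 264 and 600.2 in FOG1 ki/ki (log2 difference -1.35), for Tubb1, the tubulin of platelets (-1.01), or for Gp9 (-0.28). These 3 were singled out after their values were seen. The part of these markers in the results below was not tested. The median signal of an array lay between 5.93 and 12.3, lowest in the replicate 3 array of each group.

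All 10 genes were higher in FOG1 ki/ki, and for all 10 the lowest FOG1 ki/ki array lay above the highest control array. Such a separation was found in 6.32% of all genes tested. The difference of group means, taken on log2(signal + 16), ran from 1.54 for Tbc1d24 to 3.04 for Gm20161, with a median of 2.47 beside 0.033 over all genes tested. With limma's adjusted p under 0.05 as the rule, 9 of the 10 were called, all but Il10, where 0.0977% of all genes were called higher. That share is 11 genes, and these 9 are among them. With the replicate number as a block all 10 were called, against 0.417% of all genes, a share that again includes them. Nothing is read from these counts, since the same contrast chose the genes. In RNA from bulk cultures a higher signal can mean more RNA per cell or more cells that hold it, and these cannot be told apart.

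**Figure D1:**
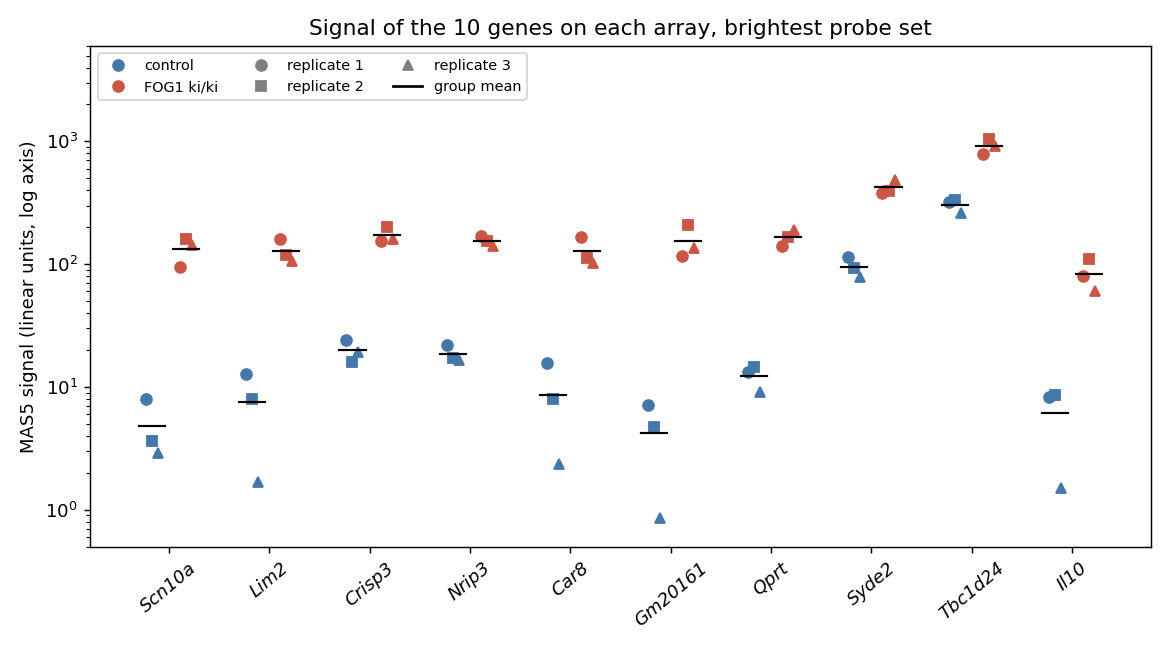
MAS5 signal of each gene's brightest probe set (y axis, linear units on a log axis) on the 3 control arrays (blue) and the 3 FOG1 ki/ki arrays (red), with symbols for the replicate number and a bar at each group mean. For all 10 genes the red points lie above the blue points, and 8 of the genes have a mean control signal under 20.

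The membrane proteins were near background in controls. Scn10a, the pore-forming subunit of a voltage-gated sodium channel of pain-sensing neurons, read 7.9, 3.6 and 2.89 in control replicates 1 to 3 and 94.5, 160 and 144 in FOG1 ki/ki. Its lowest FOG1 ki/ki array was 12 times its highest control array, and the log2 difference was 2.82 (SD 0.28, pooled over the groups, n = 3 each). Lim2, a membrane protein of lens fibre cells, read 12.8, 8 and 1.68 in controls and 159, 119 and 106 in FOG1 ki/ki (log2 difference 2.63, pooled SD 0.32). The FOG1+/+ control was the lowest of the 6 arrays for both genes, and the FOG1+/- controls lay closer to it than to any FOG1 ki/ki array. Choosing genes for a high FOG1 ki/ki signal relative to all controls favours such a placing, so nothing is read from it about the FOG1+/- genotype.

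The secreted proteins were Crisp3 and Il10. Crisp3, a cysteine-rich secretory protein of salivary gland and other exocrine tissue, read 24.1, 16.1 and 19.3 in controls and 155, 200.3 and 162 in FOG1 ki/ki (log2 difference 2.39, pooled SD 0.17). Il10, the cytokine that restrains inflammatory responses, read 8.3, 8.6 and 1.49 in controls and 80.6, 111 and 59.9 in FOG1 ki/ki (log2 difference 2.16, pooled SD 0.33). Crisp3 varied little within either group. Il10 varied more, with a coefficient of variation of 30.7% in FOG1 ki/ki and 65.6% in controls.

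The enzymes and enzyme relatives were Qprt and Car8. Qprt, which turns quinolinate into nicotinate mononucleotide on the way from tryptophan to NAD, read 13.3, 14.4 and 9.06 in controls and 140, 167 and 188 in FOG1 ki/ki (log2 difference 2.68, pooled SD 0.17). Car8 belongs to the carbonic anhydrase family but lacks the catalytic activity and binds the inositol trisphosphate receptor. It read 15.6, 8 and 2.35 in controls and 166, 112 and 102 in FOG1 ki/ki (log2 difference 2.54, pooled SD 0.36). For Qprt the highest FOG1 ki/ki array was replicate 3, and for Car8 it was replicate 1.

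The regulators of small GTPases were already well above background in controls. Syde2, a GTPase-activating protein, read 115, 93.6 and 78.1 in controls and 380, 396 and 489 in FOG1 ki/ki (log2 difference 1.98, pooled SD 0.21). Tbc1d24, a TBC domain protein of vesicle traffic, read 323, 331 and 261 in controls and 783, 1049 and 917 in FOG1 ki/ki (log2 difference 1.54, pooled SD 0.19). These genes had the smallest log2 differences of the 10, with group means 4.41 and 3.01 times control, and their arrays did not overlap either.

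Nrip3, named for an interaction with nuclear receptors, and the long noncoding RNA Gm20161 complete the set. Nrip3 read 21.8, 17.1 and 16.6 in controls and 171, 155 and 142 in FOG1 ki/ki. Its log2 difference was 2.32 with a pooled SD of 0.12, the smallest SD among the brightest probe sets of the 10 genes. Gm20161 read 7.1, 4.7 and 0.848 in controls and 117, 207 and 136 in FOG1 ki/ki (log2 difference 3.04, pooled SD 0.32). Its lowest FOG1 ki/ki array was 16.5 times its highest control array, the widest separation of the 10, while Tbc1d24 had the narrowest at 2.37 times.

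The sequence before the start sites of these genes was examined for the GATA motif that FOG1's partners bind. RefSeq promoter windows of assembly GRCm38.p6, cut to the 250 bases before the start, were found for 7 of the genes, with 2 windows for Tbc1d24. The motif was searched on both strands as AGATAA or TGATAA, or as AGATAG or TGATAG, and matches that share bases were each counted. The matches printed here share none. Of all 32851 windows, 26.5% held at least 1 match. Among the 8 windows of the genes, only that of Gm20161 held any, and it held 4. At least 4 were found in 0.21% of all windows. The matches began 132, 111, 59 and 26 bases before the start, all on the strand of the gene. A match describes letters and is not a measured binding site, and a window without one says nothing about the factor. The windows below were chosen after this search, to show the GATA matches and the contrast in base composition between Crisp3 and Syde2. Capitals mark the GATA matches in Gm20161, the sequence TATAAA in Crisp3 and every CG pair in Syde2.
Gm20161, GRCm38.p6 chr17:29658330-29658579, minus strand: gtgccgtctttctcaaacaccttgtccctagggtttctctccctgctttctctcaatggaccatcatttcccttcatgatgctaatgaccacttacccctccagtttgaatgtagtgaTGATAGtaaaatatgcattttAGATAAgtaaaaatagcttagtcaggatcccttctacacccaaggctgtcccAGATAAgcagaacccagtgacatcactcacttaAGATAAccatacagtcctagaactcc
Crisp3, GRCm38.p6 chr17:40242289-40242538, minus strand: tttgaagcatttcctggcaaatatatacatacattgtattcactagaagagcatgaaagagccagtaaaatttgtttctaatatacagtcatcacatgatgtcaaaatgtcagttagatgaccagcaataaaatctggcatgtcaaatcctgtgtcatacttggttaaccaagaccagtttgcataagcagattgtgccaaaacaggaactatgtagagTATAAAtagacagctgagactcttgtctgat
Syde2, GRCm38.p6 chr3:145987620-145987869, plus strand: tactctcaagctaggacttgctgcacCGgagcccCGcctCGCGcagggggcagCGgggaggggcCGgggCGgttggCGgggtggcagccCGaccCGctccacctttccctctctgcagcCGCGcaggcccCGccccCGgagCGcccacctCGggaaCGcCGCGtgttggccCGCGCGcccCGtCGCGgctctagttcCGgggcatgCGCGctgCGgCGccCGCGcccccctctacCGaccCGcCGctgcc
Syde2 had 35 CG pairs, a number reached by 2.97% of all windows, and the upstream window of Tbc1d24 had 28, reached by 7.61%. Crisp3 had 0, as did 7.87% of all windows, and Gm20161 had 1, where the median over all windows was 6. Scn10a had 8 and Qprt 6. Lim2 had 2, and the second Tbc1d24 window had 3. TATAAA, searched on both strands, began 31 bases before the start of Crisp3 and was in none of the other windows of these genes, against 12.4% of all windows. Base composition differed widely among the windows, also between the 2 windows of Tbc1d24.

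Pair by pair, within equal replicate numbers, the difference was positive for every gene and ran from 1.24 to 3.43. The median over the genes was 2.26 in pair 1, 2.45 in pair 2 and 2.56 in pair 3. Pair 1 gave the largest difference for 0 of the genes, and pairs 2 and 3 for 5 each. Nrip3 was the most even, at 2.31, 2.37 and 2.28. Gm20161 was uneven, at 2.52, 3.43 and 3.17, as was Scn10a at 2.21, 3.17 and 3.08. Among the FOG1 ki/ki arrays the highest was replicate 2 for 5 genes, replicate 1 for 3 and replicate 3 for 2. Among the controls the FOG1+/+ array, replicate 3, was the lowest for 9 of the 10, all but Crisp3. Its median over all probe sets was also the lowest of the controls, 7.75 against 10.3 and 12.2. A low median was not particular to the FOG1+/+ array, since FOG1 ki/ki replicate 3 stood at 5.93 against 12.3 and 11.1. The deposited values of replicates 1 and 2 carry 1 decimal in both groups, and those of replicate 3 carry more. Whether genotype or array sets the lower values of the genes cannot be told apart with 1 FOG1+/+ array.

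To gauge background, the 43 probe sets naming a single olfactory receptor gene, genes of the nasal epithelium, were read on the same arrays. Their highest signal was 5 on any array and their 95th percentile lay between 2.04 and 3.2. On each FOG1 ki/ki array all 10 genes were above the highest olfactory receptor probe set. So were all 10 on both FOG1+/- arrays and 7 on the FOG1+/+ array, where Lim2, Gm20161 and Il10 were below the 95th percentile. Signals of different probe sets are not comparable as RNA levels, so this yardstick only places the values against a floor. The 43 probe sets themselves differed between the groups by -0.083 to 0.16 on the log2(signal + 16) scale. The 8 genes with a mean control signal under 20 lay between the 20 and 58.4 percentiles of all probe sets in controls and between the 68.5 and 78.8 percentiles in FOG1 ki/ki.

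**Figure D2:**
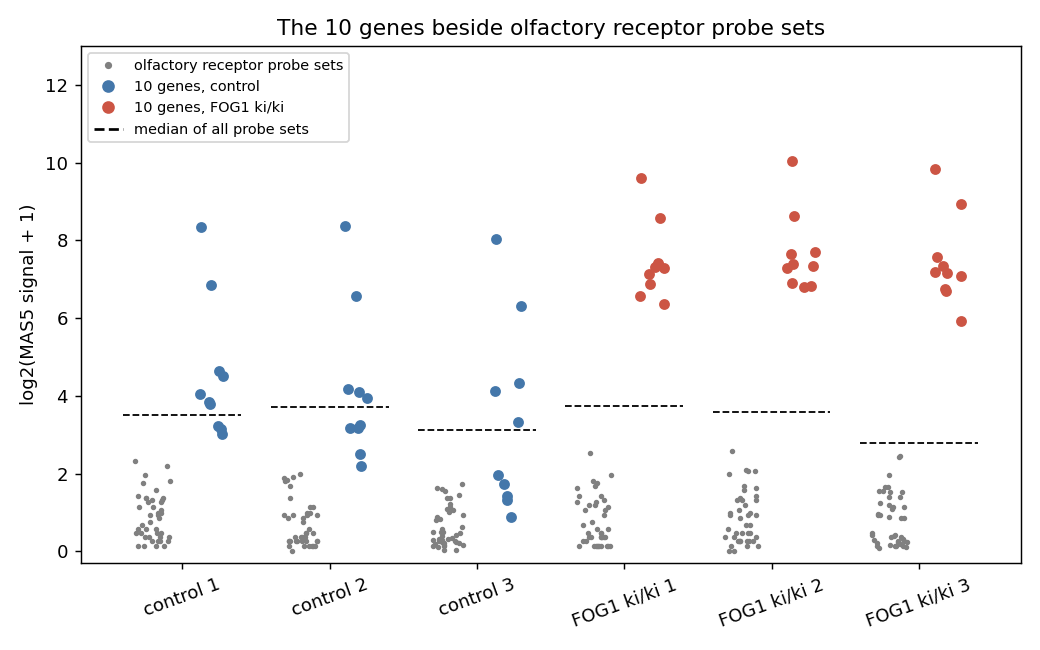
Signal as log2(signal + 1) on each of the 6 arrays (x axis) for the 10 genes (blue in controls, red in FOG1 ki/ki) and for 43 olfactory receptor probe sets (grey), with the median of all probe sets dashed. All red points lie above the grey points, while in control replicate 3 the points of Lim2, Gm20161 and Il10 reach into them.

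The filter on dim signal used all 6 arrays. On the control arrays alone, Crisp3, Nrip3, Qprt, Syde2 and Tbc1d24 would have passed it, and Scn10a, Lim2, Car8, Gm20161 and Il10 would not. Those 5 were thus tested only because FOG1 ki/ki was high.

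The size of a difference near background depends on the constant added before taking logs. With 1 in place of 16, Gm20161 stood at 5.09, Scn10a at 4.59 and Lim2 at 4.20, and with 64 they stood at 1.65, 1.5 and 1.42. Tbc1d24 hardly moved, at 1.58 and 1.41. With 64 the 10 genes lay between 1.06 for Il10 and 1.65 for Gm20161, and their order by size differed between constants. All stayed positive under each constant. With a constant of 1, 4 of the 10 were called, where 5 of all 11260 genes tested were called higher, these 4 included.

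**Figure D3:**
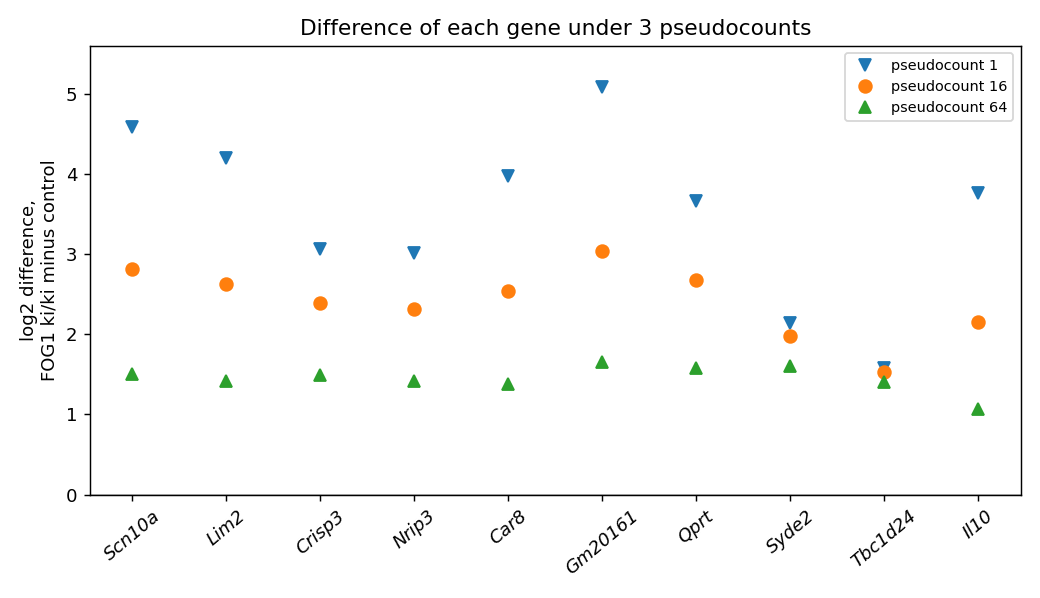
Difference of group means of log2(signal + constant), FOG1 ki/ki minus control, for each gene (x axis) with constants of 1, 16 and 64. The dim genes spread from 3.02 to 5.09 with a constant of 1, and all genes fall between 1.06 and 1.65 with 64.

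Nrip3, Car8, Qprt and Tbc1d24 had more than 1 probe set, 11 in all, and the other 6 genes had 1 each. All 7 further probe sets read higher in FOG1 ki/ki, and 6 of them without overlap. The share of 6.32% with such a separation covers only brightest probe sets that passed the filter, and 3 of the 7 passed it. No share over all probe sets was taken, and the genes were chosen on this contrast, so nothing is read from the count. For Tbc1d24 a second probe set read 87, 86.2 and 79.9 in controls and 260, 322 and 275 in FOG1 ki/ki, a log2 difference of 1.58 beside 1.54 for the brightest. The third read 12.5, 15.1 and 17.5 against 34.2, 39.5 and 50.7 (log2 difference 0.88). The fold of mean signals was alike over the 3, at 3.01, 3.38 and 2.76. The second Qprt probe set read 3.5, 1.7 and 1.89 in controls and 29.7, 33.2 and 26.3 in FOG1 ki/ki, with a fold of mean signals of 12.6 beside 13.5 for the first.

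The further probe sets of Nrip3 and Car8 were dim in both groups. The second of Nrip3 read 4, 1.7 and 1.01 in controls and 12.6, 10.5 and 3.38 in FOG1 ki/ki, and this was the probe set whose groups overlapped. The third read 0.539 or less in control replicates 2 and 3 and 4.2 in replicate 1, against 8.1 to 9.7 in FOG1 ki/ki. For Car8 the second read 2.5, 0.3 and 0.571 in controls and 6.7, 6.7 and 3.18 in FOG1 ki/ki, and the third 0.4, 0.2 and 1.21 against 9.9, 4.6 and 1.77. Their direction was that of the bright probe set, at signals of at most 12.6, where the highest olfactory receptor probe set read 5. For these genes a signal above 100 in FOG1 ki/ki was seen with 1 of 3 probe sets.

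**Figure D4:**
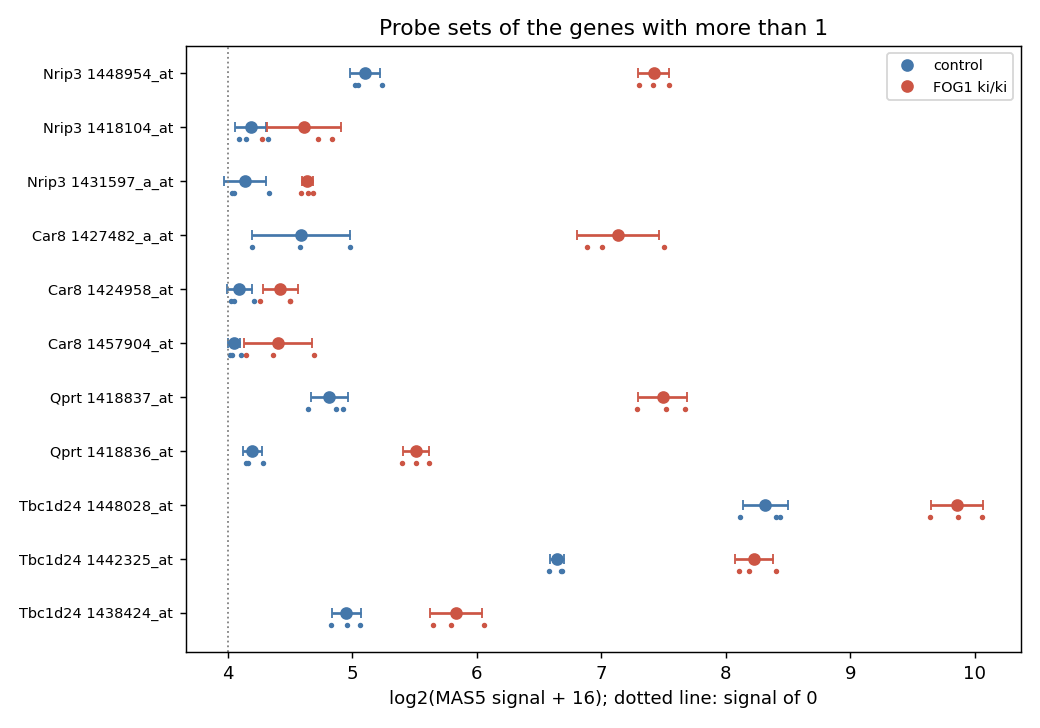
Mean and SD of log2(signal + 16) in controls (blue) and FOG1 ki/ki (red), with the 3 arrays of each group as small dots, for the 11 probe sets of Nrip3, Car8, Qprt and Tbc1d24. All 5 probe sets of Qprt and Tbc1d24 separate the groups, while the dim probe sets of Nrip3 and Car8 lie near the dotted line of signal 0.

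The relatives and pathway partners of the genes were then examined. Of the genes in the 9 family and pathway lists that are not among the 10, 77 passed the filter, and limma called 0 of them, where 0.151% of all genes were called in either direction. With the replicate block it also called 0, where 0.835% of all genes were called. At an unadjusted p under 0.05 there were 9 of 77, beside 6.69% of all genes.

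The other sodium channel genes were dim. All 11 with a probe set failed the filter, and apart from Scn11a none exceeded a signal of 7.7 on any array. Scn11a, the neighbouring channel gene, read 3, 22.7 and 2.6 in controls and 9.4, 23.3 and 0.998 in FOG1 ki/ki, highest in replicate 2 of each group. Crisp2 and Crisp4, the other secretory proteins of the Crisp3 family with a probe set, read 4.1 or less on every array. Of the wider family Glipr1 had a log2 difference of 0.24, Glipr2 0.38 and Pi16 -0.33 (limma adjusted p = 0.999 each).

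Among carbonic anhydrases 10 besides Car8 were tested, 6 above and 4 below control with a median of 0.088. Car2, the abundant cytosolic enzyme, read 1463, 1255 and 841 in controls and 1322, 1562 and 891 in FOG1 ki/ki. Car12 had a log2 difference of -0.78, Car5b -0.52 and Car1 0.83, none past the test. Car1 read 64 in FOG1 ki/ki replicate 1 and 12.4 or less on every other array.

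In the path from tryptophan to NAD, most of the listed enzymes before Qprt were dim. Ido1, Ido2, Tdo2, Kynu, Kmo and Haao failed the filter, and their log2 differences lay between -0.30 and 0.078. Afmid, the formamidase that makes kynurenine, passed the filter and differed by 0.33 (limma adjusted p = 0.956). After Qprt, Nmnat2, which joins the mononucleotide to ATP, read 48.3, 47.8 and 6.28 in controls and 417, 398 and 27.0 in FOG1 ki/ki. Its log2 difference of 2.13 did not pass (limma adjusted p = 0.731, 0.0724 with the block), and both replicate 3 arrays were far below the others of their group. Nampt, which makes the mononucleotide from nicotinamide, differed by 0.046, and Naprt, which makes the nucleotide of nicotinate, by 0.38.

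The IL-10 receptor chains were measured but did not pass the test. Il10ra had a log2 difference of 0.30 and Il10rb of -0.63 (limma adjusted p = 0.919). Stat3, the transcription factor downstream of the receptor, read 582, 768 and 636 in controls and 529, 454 and 371 in FOG1 ki/ki (a difference of -0.54 on the log2 scale, limma adjusted p = 0.645). Socs3, a feedback inhibitor, stood at -0.56 (limma adjusted p = 0.943). The cytokines Il20 and Il24, encoded in the same cluster as Il10, read 2.6 or less on every array.

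Of TBC domain proteins 25 besides Tbc1d24 were tested, 10 above and 15 below control, with a median of -0.068. Tbc1d9 read 156, 207 and 149 in controls and 31.1, 87.9 and 66.2 in FOG1 ki/ki (log2 difference -1.32, limma adjusted p = 0.35, 0.0724 with the block). Tbc1d12 stood at -1.02 and Tbc1d15 at -0.60, and neither passed. For Syde1, the closest relative of Syde2, the log2 difference was -0.45, and of the other GTPase-activating proteins in that list Arhgap4 stood at 0.83 and Arhgap9 at 0.66. Nrip1 differed by 0.081, Ctbp2 by 0.27 and Ctbp1 by -0.042.

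**Figure D5:**
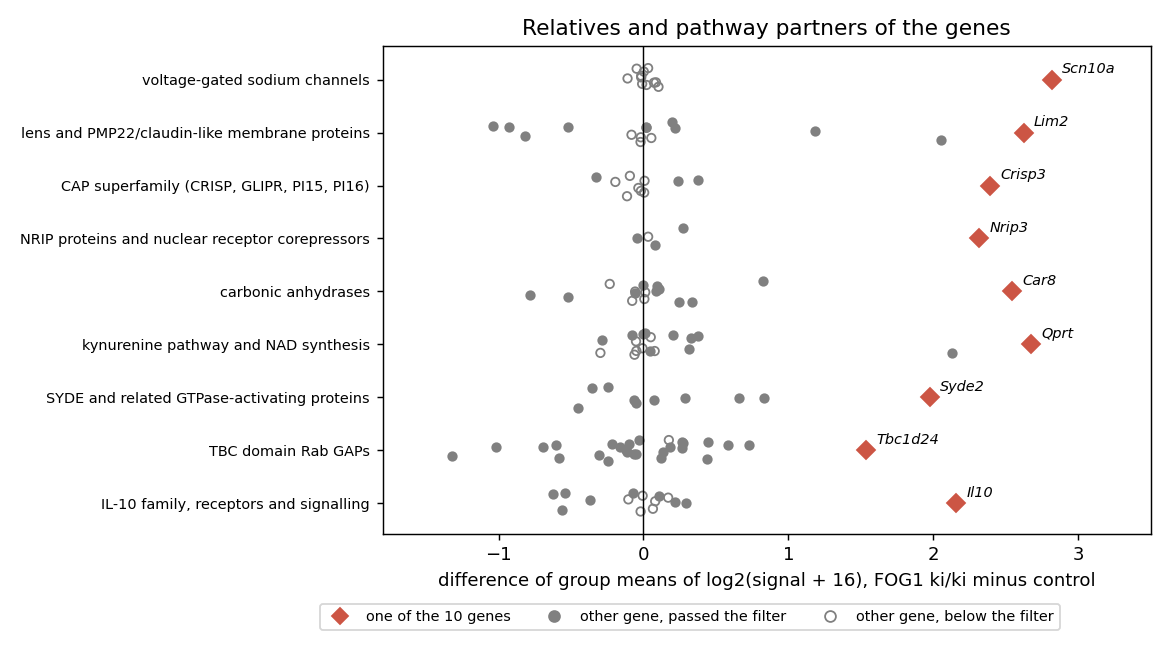
Difference of group means of log2(signal + 16), FOG1 ki/ki minus control (x axis), for the genes of each family or pathway list (y axis), with filled circles for genes that passed the filter, open circles for those below it and a red diamond for the gene the list was built around. The diamonds lie between 1.54 and 2.82. Apart from them, only Nmnat2 (2.13) and Nkg7 (2.06) exceed 2.

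Lim2 led to a neighbour as well as to relatives. Nkg7, a granule membrane protein of cytotoxic lymphocytes that belongs to the same protein superfamily, is the next gene after Lim2 in the RefSeq gene order. It read 205, 273 and 34.7 in controls and 686, 645 and 486 in FOG1 ki/ki (log2 difference 2.06, limma adjusted p = 0.434, 0.0766 with the block), with no overlap. Cldnd2, the gene after Nkg7, read 4.2 or less on every array. None of the other lens genes measured passed the test. Mip, Cryaa, Bfsp1 and Gja3 failed the filter, and Cryab and Bfsp2 differed by -0.52 and 0.22. Of the other membrane proteins in that list, Perp stood at 1.19 and Pmp22 at -0.93, neither past the test.

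Taking the nearest 2 genes on each side of each of the 10, 40 genes were listed, 19 had a probe set and 14 passed the filter. Limma called 0 of the 14, with or without the block, and 3 had an unadjusted p under 0.05, beside 6.69% of all genes. Of the 14, 11 stood above control, with a median of 0.17, and 4 had non-overlapping groups upwards, beside 6.32% of all genes. These were Nkg7, Spn, Cmtr1 and Rnf8. Spn, the sialophorin CD43 of blood cells, lies next to Qprt and read 978, 773 and 249 in controls and 1426, 1669 and 1495 in FOG1 ki/ki (a difference of 1.38 on the log2 scale, limma adjusted p = 0.503, 0.13 with the block). Cmtr1 and Rnf8, on either side of Gm20161, stood at 0.53 and 0.31. Mapkapk2, next to Il10, differed by -0.0086. Near Tbc1d24, Amdhd2 differed by -0.61 and Tedc2 by 0.016, and near Scn10a Exog differed by 0.12. The other tested neighbours, Siglecg, 4930431P19Rik, Tmem9b, Ccdc167, AI467606 and 2410004B18Rik, lay between -0.031 and 0.33.

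Among all other genes tested, those most like the mean log2 profile of the 10 over the 6 arrays were Gbp6, Tprn, Bcl2, Wbscr25 and Rwdd2a, with Pearson's r of 0.985, 0.982, 0.978, 0.971 and 0.971. With 3 arrays a group, any gene split cleanly by group scores high on this measure, so it is given as a description. Gbp6, an interferon-inducible guanylate-binding protein, read 64.5, 90.3 and 32.0 in controls and 1195, 891 and 834 in FOG1 ki/ki. Bcl2, which protects cells from apoptosis, read 329, 250.3 and 261 against 761, 918 and 1113. The noncoding RNA Wbscr25 read 19.7, 18.6 and 18.7 against 69.1, 52.9 and 70.2 (log2 difference 1.19, limma adjusted p = 0.223). Tprn and Rwdd2a had small differences, 0.31 and 0.54.

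Markers of other blood cells moved with the groups in part. Of 16 mast cell and basophil markers, 14 had a probe set and 11 of these had a higher mean in FOG1 ki/ki. Their summed signal was 3187 to 6616 in controls and 9453 to 10008 in FOG1 ki/ki, without overlap, lowest in the FOG1+/+ array. Most of this sum came from Srgn, Fcer1a and Gzmb. Srgn differed by only -0.016. Fcer1a read 1891, 2167.5 and 93.1 in controls and 3317, 3696 and 3912 in FOG1 ki/ki, and Gzmb 327, 189 and 5.96 against 510, 923 and 1785. The groups did not overlap for Fcer1a, Gzmb and Ms4a2, but overlapped for every other measured marker of this list. Limma called 0 of the 11 tested, with 3 at an unadjusted p under 0.05, and 1 with the block, beside 6.69% and 0.835% of all genes. Ms4a2, a chain of the IgE receptor, read 102, 62.9 and 13.3 in controls and 704, 564 and 189 in FOG1 ki/ki. Mcpt4 was at the olfactory receptor level on all arrays, and the tryptase genes Tpsb2 and Tpsab1 read at most 16.3 and 4.3. The FOG1+/+ array was the lowest control for this list and for 9 of the 10 genes. Within FOG1 ki/ki the list was split. Replicate 3 was the lowest of that group for Ms4a2, Cpa3, Mcpt8 and Hdc, among others, but the highest for Fcer1a, Gzmb and the summed signal. The part of these markers in the result was not tested.

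The summed T and NK cell markers were 331 to 376 in controls and 662 to 849 in FOG1 ki/ki, but without Nkg7 the remaining 9 summed to 96.7 to 297 and 113 to 176, which overlap. The T cell receptor chain genes Cd3e, Cd3d and Cd3g read at most 10.7, 20.4 and 3.7. The summed erythroid markers were lower in FOG1 ki/ki, 3190 to 3798 against 3964 to 4840, while 4 of 8 had a higher mean and Hba-a1 and Alas2 were at the olfactory receptor level. Most of this sum came from Tfrc (log2 difference -0.13) and Hbb-b2 (-0.63, without overlap). Klf1 went the other way without overlap, at 43.7, 20.1 and 3.04 in controls and 101, 162 and 78.7 in FOG1 ki/ki (1.86). Limma called 0 of the 4 erythroid markers tested, with 2 at an unadjusted p under 0.05. Sums of the monocyte and macrophage list overlapped, at 12936 to 21543 and 7440.5 to 16947, with 0 of 15 markers higher in FOG1 ki/ki, and were lower there in all 3 pairs of equal number. The median log2 difference of these 15 was -0.74. Limma called 0, with or without the block, and 2 had an unadjusted p under 0.05, beside 6.69% of all genes. The groups did not overlap for Adgre1 (-1.31), Cd68 (-1.26) and Trem2 (-1.27). The B cell and fibroblast sums also overlapped and were lower in FOG1 ki/ki in all 3 pairs, at 161, 210 and 41.0 against 151, 119 and 20.6 and at 1441, 6467 and 212 against 974, 2727 and 150.4. The sums of neutrophil, hepatocyte, endothelial and eosinophil markers overlapped, and their pairs differed in direction. Neutrophil sums were 13882.5, 16612.5 and 2838.5 in control replicates 1 to 3 and 9515.8, 16983 and 4093 in FOG1 ki/ki. Eosinophil sums were 2233, 1708 and 45.2 against 1459.5, 2096 and 111. Both lists were thus far lower on the replicate 3 array of each group, FOG1+/+ or FOG1 ki/ki. Within the endothelial list limma called 0 of 8, with 4 at an unadjusted p under 0.05, and 2 with the block, beside 6.69% and 0.835% of all genes. There Tek, an angiopoietin receptor, read 381, 371 and 204 in controls and 912, 1176 and 1194 in FOG1 ki/ki. Esam, a cell adhesion molecule, read 394, 292 and 580 against 146, 63 and 98.7. The groups did not overlap for either, in opposite directions. The part of these cell types in the result was not tested.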

How the data were processed

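Biotin-labelled amplified total RNA of 6 megakaryocyte cultures was measured on arrays. The authors deposited linear intensities for each probe set; the submitters' processing notes name MAS5 without a version. The 2% trimmed mean of every array was 150, a common scaling that hides any shift in the RNA content of whole cells. Scanner files were not used here. The number of arrays limits the precision, and no detection calls were at hand.

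Of 45101 probe sets, 64 are platform controls and were not tested. Names came from the platform annotation, in which 34958 probe sets had 1 symbol, 932 several and 9160 none. Intensities were taken as log2(signal + 16), a scale that shrinks changes at low signal. Probe sets whose mean fell in the lower 50% were dropped, and each gene was read from its brightest probe set, which gave 11260 genes. limma 3.58.1 in R 4.3.3 (lmFit, eBayes with a trend, Benjamini-Hochberg over all genes, two-sided) compared the groups, and the fit was tested on simulated data. The control group pools FOG1+/- and FOG1+/+.

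The members, lists and tests were chosen with earlier results of these data known. Named were all 10 genes with every probe set, up to 3 tested genes per family list with the smallest unadjusted p, tested neighbours, the 5 genes of most similar profile, Gbp6, Bcl2 and Zfpm1. Other list genes named in the text were chosen after their values were seen. Neighbours followed the RefSeq gene table, assembly GRCm38.p6. Deviations from group means of same-numbered arrays correlated at 0.482, 0.689 and 0.674, which was the ground for the replicate block. Between arrays of unlike number the correlations ran from -0.568 to 0.077. Within a group of 3 arrays such deviations sum to 0, so the values are not independent. They cannot show whether arrays of 1 number share a litter, a day or the handling of the arrays. Other constants, normalizations, filters, probe set rules, the block and left-out arrays were tried. Summaries and plots used Python 3.11.15 (pandas 2.3.3, matplotlib 3.10.9).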

Additional observations from a re-analysis of the deposited data

How the results depend on the processing

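The difference of each of the 10 genes stayed positive with a pseudocount of 1 or 64, quantile normalization, median centring and the mean of a gene's probe sets. This is no sign of stability, since the genes were chosen for it, and groups that do not overlap cannot change direction when an array is left out. Their median was 3.71 with a pseudocount of 1, 1.45 with 64 and 2.08 with the mean of all probe sets, and 2.37 to 2.59 with arrays left out. The count of called genes depended far more on the setting. Against 11 higher and 6 lower, there were 5 and 3 with a pseudocount of 1, 7 and 2 with the mean of probe sets, 0 and 1 with no filter, and 1 and 2 with the lower 75% left out, where 2 of the 10 genes were tested. With the replicate block there were 47 higher and 47 lower. Leaving out any 1 array or pair left 0 to 1 higher and 0 to 1 lower, and 0 of the 10 genes called. Of the 10, 9 were called in the fit reported, 4 with a pseudocount of 1, 6 with the mean of probe sets, 0 with no filter and 10 with the block. Median centring called 8 of them, among 10 of 11260 genes called higher. A pseudocount of 64 called 9, among 11 called higher, and quantile normalization 10, among 12. Nothing is read from these counts, since the same contrast chose the genes. Calls in the families stayed at 0 throughout, while the block added 4 calls among the marker genes (1 megakaryocyte, 1 mast cell and 2 endothelial) and none among the neighbours. The cause of these changes was not tested. The left-out fits also had fewer arrays, and the filters changed how many genes were tested. Signals near background limit what can be read in controls.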
